A study of Mus musculus with 8 samples.

Results

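10 genes of C-type lectin receptors were followed in mouse macrophages, the phagocytes of tissues, which here had been raised from bone marrow cells. The genes were Clec4e, Clec4d, Clec4n, Clec7a, Clec5a, Clec10a, Clec9a, Clec12a, Mrc1 and Cd209a, taken as a list of named receptors of this family, and all 10 of them were measured among 19938 named genes on 8 Affymetrix arrays. Over 6 h the cells received IFN-gamma plus LPS, the endotoxin of Gram-negative bacteria, or IL-4 plus IL-13, or all of LPS, IL-4 and IL-13 at once, or no treatment. Each of these 4 groups had 2 arrays. The study asked which activation state and which signature genes each treatment gives. No source used here gives doses, mouse strain, age or sex, and neither LPS nor IFN-gamma was given by itself, so the LPS-treated groups differ from each other in IFN-gamma as well as in IL-4 and IL-13.

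C-type lectin receptors sit on the surface of myeloid cells and bind sugars, glycolipids or debris of microbes and dead cells through a shared fold. Some signal through an adaptor or a tail that recruits the kinase Syk and then the adaptor CARD9, which drives cytokine genes. Others carry an inhibitory tail, and others mainly take up their ligand for digestion. In macrophages the mannose receptor and the galactose-type lectins are widely used as marks of IL-4 activation, and Mincle, the product of Clec4e, is known as a receptor induced by inflammatory stimuli.

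Of 10 macrophage markers 9 were measured, and their mean log2 signal lay between 11.97 and 11.98 in the IFN-gamma/LPS arrays, at 11.55 in both IL-4/IL-13 arrays, between 11.95 and 11.98 in the LPS/IL-4/IL-13 arrays and between 11.98 and 12.00 in the untreated arrays. Array medians ran from 6.12 to 6.20, and the 2 arrays of a group had r = 0.994 to 0.997 over the genes, which are not independent replicates. Values are the deposited log2 signal of 1 probe set per gene, so a level can be set against the same gene in another group but not against another gene. Changes are log2 fold changes ± SE from limma with 2 arrays per group. A gene is said to have risen or fallen at a Benjamini-Hochberg adjusted p, over all 19938 genes, under 0.05. The labels do not say whether replicate arrays stand for separate cultures, so the p-values measure the spread between these arrays only. All comparisons with untreated cells share the same 2 untreated arrays. Over all genes the median log2 change from untreated cells was 0.105 under IFN-gamma/LPS, 0.07 under IL-4/IL-13 and 0.09 with all of LPS, IL-4 and IL-13. The arrays have no detection calls. Of 4 measured B cell markers, which macrophages should lack, the highest had a mean log2 signal of 6.03 under IFN-gamma/LPS, 5.89 under IL-4/IL-13, 5.79 under LPS/IL-4/IL-13 and 5.69 in untreated cells. Group means at or below these values were those of Clec4e and Clec4n under IL-4/IL-13, Clec9a in IL-4/IL-13 and untreated cells, Clec10a in both groups with LPS, and Cd209a under IFN-gamma/LPS. Markers of other cell types read higher than the B cell markers, among them the T cell gene Cd3e. Its group means were 6.45 under IFN-gamma/LPS, 6.54 under IL-4/IL-13, 6.28 under LPS/IL-4/IL-13 and 6.24 in untreated cells. Clec4n under LPS/IL-4/IL-13 and Cd209a in IL-4/IL-13 and untreated cells lay below them. None of the receptor gene means named here is shown to lie above background. Differences that involve them are given as log2 differences of signal, with no fold and no rank by size. They may understate the change of the transcript. The fibroblast gene Col1a1 read higher than Cd3e, at 7.82, 7.825, 7.845 and 7.885 in the same order of groups. Below it lay Clec4e and Clec10a in untreated cells, Clec4n under IFN-gamma/LPS, and Clec9a and Cd209a throughout. So did Clec5a except under IFN-gamma/LPS. The neutrophil gene Ngp, at 8.475, 8.99, 8.195 and 9.095, exceeded Clec4n, Clec5a and Clec10a in every group. These further means are not shown above background either, and folds from them may understate the change. As RNA came from whole cultures, fewer cells of a type and less RNA per cell cannot be told apart.

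Each treatment gave the receptor genes its own combination of gains and losses. IFN-gamma/LPS raised 4 of the 10 genes (Clec4e, Clec9a, Clec5a and Cd209a) and lowered 5 (Clec10a, Clec4n, Mrc1, Clec4d and Clec12a), where 51.9% of all genes passed, 23.6% higher and 28.4% lower. IL-4/IL-13 raised 4 (Clec10a, Clec7a, Mrc1 and Cd209a) and lowered 4 (Clec4n, Clec4d, Clec4e and Clec12a), where 20.2% of all genes passed, 7.83% higher and 12.3% lower. The combination LPS/IL-4/IL-13 raised 6 (Clec4e, Clec9a, Clec7a, Cd209a, Clec5a and Mrc1) and lowered 3 (Clec4n, Clec10a and Clec12a), where 45.6% of all genes passed, 20.3% higher and 25.4% lower. The median change of the 10 genes was -0.01 under IFN-gamma/LPS, 0.12 under IL-4/IL-13 and 0.47 under LPS/IL-4/IL-13. Clec4n and Clec12a fell under every treatment, and Cd209a rose under every treatment. The Clec12a decreases in the LPS groups and the Cd209a increase under IFN-gamma/LPS did not pass in every setting, as given below. Without untreated array 1, the count under IFN-gamma/LPS was 6 in place of 9. Arrays did not overlap with the untreated ones for all 10 receptor genes under IFN-gamma/LPS (78.9% of all genes), 9 under IL-4/IL-13 (65% of all genes) and all 10 under LPS/IL-4/IL-13 (73.7% of all genes).

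**Figure D1:**
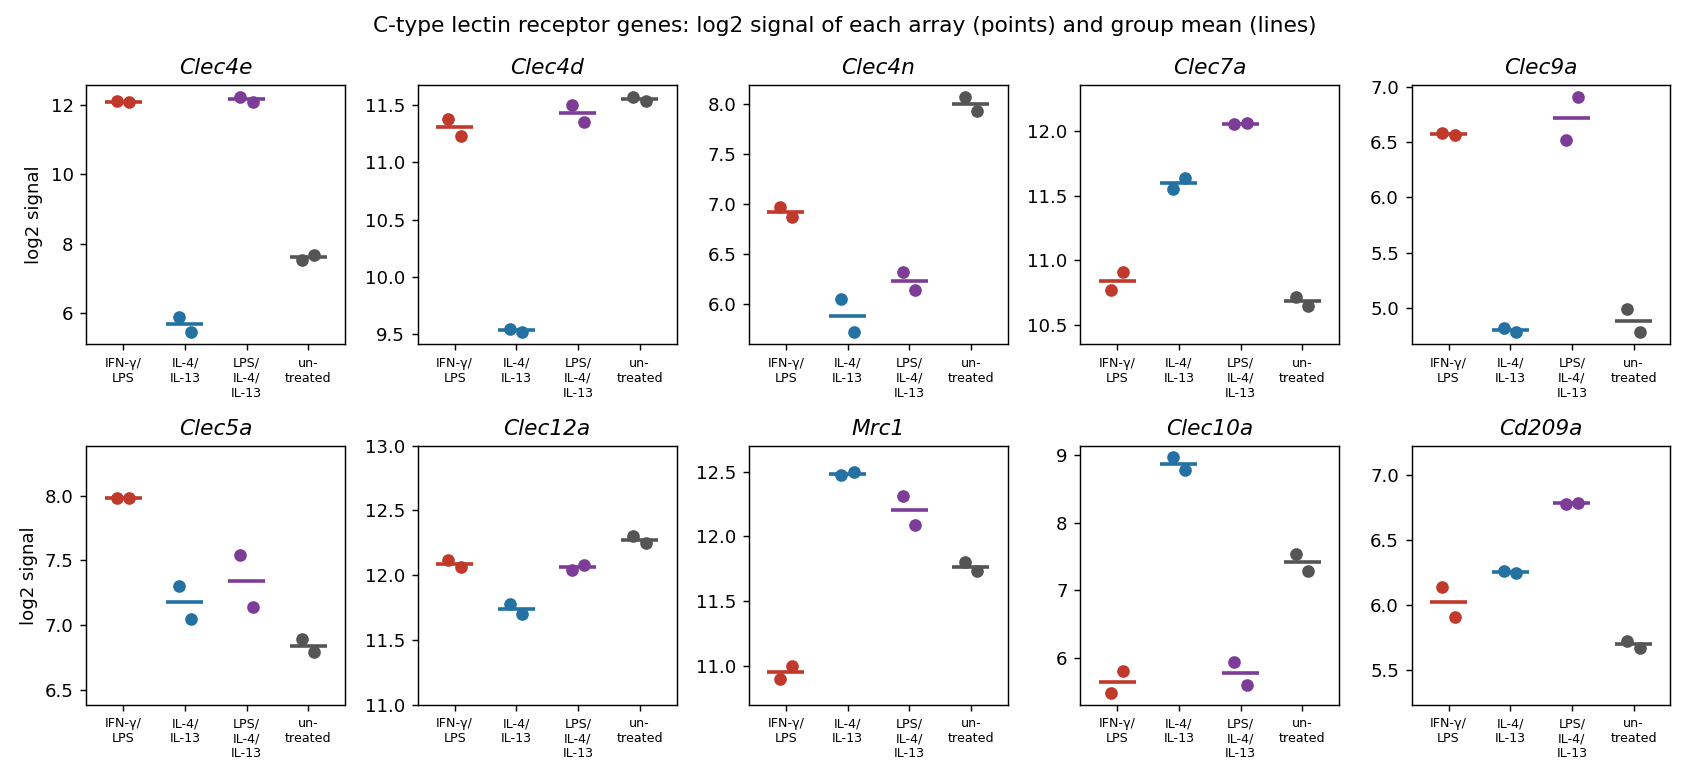
Log2 signal (y axis, a range of its own for each gene) of each array (points) and the group mean (lines) for the 10 receptor genes in treated and untreated macrophages, 4 groups of 2 arrays. Clec4e lies at 12.08 or above in both LPS groups against 7.54 and 7.67 in untreated cells, and Clec10a at 8.78 and 8.96 under IL-4/IL-13 against 7.29 and 7.54 in untreated cells.

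Clec4e, Clec4d and Clec4n encode Mincle, MCL and Dectin-2, activating receptors that signal through the adaptor chain FcR-gamma, the product of Fcer1g. Mincle binds the mycobacterial glycolipid cord factor, MCL pairs with Mincle, and Dectin-2 binds fungal mannans. These genes are next to each other on chromosome 6, in the order Clec4n, Clec4d, Clec4e. All 3 fell under IL-4/IL-13, by between 1.93 and 2.12 on the log2 scale, and their values spread apart with LPS. The promoter windows of Clec4e and Clec4d, from 250 bases before to 50 after the RefSeq start site on GRCm38.p6, are shown because these neighbours had unlike values with LPS, with matches to 7 motifs in capitals. The motifs, searched on both strands, were GGG and CC with any 5 bases between them (NF-kB), TGANTCA (AP-1), TTGCNNAA (C/EBP), GAGGAAG (PU.1), TTCNNNGAA (GAS), TTC and GAA with any 4 bases between them (STAT6), and GAAA repeated after any 2 bases (ISRE). No matches overlapped in the windows of the receptor genes.
Clec4e chr6:123289822-123290121 (-): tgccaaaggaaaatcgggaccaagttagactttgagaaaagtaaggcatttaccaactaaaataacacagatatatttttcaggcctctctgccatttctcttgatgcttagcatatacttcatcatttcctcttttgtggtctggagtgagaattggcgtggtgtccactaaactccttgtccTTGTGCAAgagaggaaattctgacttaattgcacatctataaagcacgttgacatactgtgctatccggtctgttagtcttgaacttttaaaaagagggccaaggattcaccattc
Clec4d chr6:123261857-123262156 (+): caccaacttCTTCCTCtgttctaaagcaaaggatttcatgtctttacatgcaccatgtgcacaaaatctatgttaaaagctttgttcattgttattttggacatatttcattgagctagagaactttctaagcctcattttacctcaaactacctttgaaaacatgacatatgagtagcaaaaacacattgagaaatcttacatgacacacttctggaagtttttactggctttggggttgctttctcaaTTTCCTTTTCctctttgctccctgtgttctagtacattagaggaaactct
The capitals in Clec4e are 1 C/EBP match starting 66 bases before the start site, a motif found in 10.8% of 32851 promoter windows of the same length. Those in Clec4d are 1 PU.1 match (13.6% of windows) 241 bases before and 1 ISRE match (3.44%) that begins at the start site. Clec4n and Clec10a have no window in the table used. A match describes letters only and shows no binding.

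Clec4e rose in both groups with LPS and fell under IL-4/IL-13. Its log2 signal was 12.12 and 12.08 in IFN-gamma/LPS cells, 5.90 and 5.45 in IL-4/IL-13 cells, 12.24 and 12.08 in LPS/IL-4/IL-13 cells, and 7.54 and 7.67 in untreated cells. Both LPS groups lay far above untreated cells and overlapped each other, and IL-4/IL-13 cells lay below untreated cells. Clec4e rose 22.5-fold under IFN-gamma/LPS (log2 4.50 ± 0.13, limma adjusted p = 4.89e-11) and 23.5-fold under LPS/IL-4/IL-13 (4.55 ± 0.13, 5.39e-11). Under IL-4/IL-13 its signal fell, to values not shown above background (-1.93 ± 0.13, limma adjusted p = 7.47e-07). Between LPS/IL-4/IL-13 and IFN-gamma/LPS the difference was 0.06 with a 95% interval from -0.22 to 0.34. Between LPS/IL-4/IL-13 and IL-4/IL-13 alone it was 6.49 ± 0.13 (limma adjusted p = 5.07e-12).

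Clec4d had log2 signals of 11.38 and 11.23 in IFN-gamma/LPS cells, 9.55 and 9.52 in IL-4/IL-13 cells, 11.50 and 11.35 in LPS/IL-4/IL-13 cells, and 11.57 and 11.53 in untreated cells. The IL-4/IL-13 arrays stood apart, and the other 3 groups lay close together. Clec4d fell 4.04-fold under IL-4/IL-13 (-2.02 ± 0.08, limma adjusted p = 8.82e-09). With LPS in addition to IL-4 and IL-13 it was 3.71-fold higher than with IL-4 and IL-13 alone (1.89 ± 0.08, 1.39e-09) and did not differ detectably from untreated cells (-0.12, 95% interval -0.29 to 0.04). Its small decrease under IFN-gamma/LPS (-0.24 ± 0.08, limma adjusted p = 0.0181) was lost on leaving out either untreated array (adjusted p = 0.117 and 0.0622) or IFN-gamma/LPS array 2 (0.147), and without the mean-variance trend (0.0636).

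Clec4n, the gene of Dectin-2, fell under all 3 treatments. Array values (log2) were 6.97 and 6.87 in IFN-gamma/LPS cells, 6.05 and 5.72 in IL-4/IL-13 cells, 6.32 and 6.14 in LPS/IL-4/IL-13 cells, and 8.07 and 7.93 in untreated cells. Every treated array lay below both untreated arrays, and those with IL-4 and IL-13 lay below those with IFN-gamma/LPS. The decrease was 2.11-fold under IFN-gamma/LPS (-1.08 ± 0.13, limma adjusted p = 1.51e-05). On the log2 scale the signal fell by 1.77 ± 0.13 under LPS/IL-4/IL-13 (2.14e-07) and by 2.12 ± 0.13 under IL-4/IL-13 (3.47e-07). LPS/IL-4/IL-13 cells were 0.34 ± 0.13 above IL-4/IL-13 cells, which missed the threshold (limma adjusted p = 0.0545), though it passed after quantile normalization (0.40, 0.0302) or median centring (0.0389), and on leaving out IL-4/IL-13 array 1 (0.0169) or LPS/IL-4/IL-13 array 2 (0.041).

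Clec7a, Clec9a and Clec5a encode further activating receptors. Clec7a makes Dectin-1, the receptor of fungal beta-glucans, and Clec9a makes DNGR-1, which binds actin filaments of dead cells and marks a class of dendritic cells. Both carry their own Syk-recruiting motif. Clec5a makes MDL-1, which signals through DAP12, the product of Tyrobp.

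Clec7a was raised by IL-4/IL-13 and raised further when LPS was present too. On the log2 scale the arrays read 10.77 and 10.91 in IFN-gamma/LPS cells, 11.55 and 11.64 in IL-4/IL-13 cells, 12.05 and 12.06 in LPS/IL-4/IL-13 cells, and 10.72 and 10.65 in untreated cells. The 4 groups did not overlap, with IFN-gamma/LPS just above untreated cells. Clec7a rose 1.88-fold under IL-4/IL-13 (0.91 ± 0.07, limma adjusted p = 2.21e-06) and 2.58-fold under LPS/IL-4/IL-13 (1.37 ± 0.07, 8.55e-09). The combination exceeded IL-4/IL-13 by 0.46 ± 0.07 (limma adjusted p = 0.000167) and IFN-gamma/LPS by 1.22 ± 0.07 (1.49e-07). IFN-gamma/LPS was 0.15 ± 0.07 above untreated cells and missed the threshold (limma adjusted p = 0.081), and passed it on leaving out IFN-gamma/LPS array 1 (0.0406). The Clec7a window is shown because it holds the STAT6-type match TTCTTCAGAA, in capitals, 131 bases before the first of its 2 listed start sites, and STAT6 is the factor that IL-4 and IL-13 activate.
Clec7a chr6:129472730-129473029 (-): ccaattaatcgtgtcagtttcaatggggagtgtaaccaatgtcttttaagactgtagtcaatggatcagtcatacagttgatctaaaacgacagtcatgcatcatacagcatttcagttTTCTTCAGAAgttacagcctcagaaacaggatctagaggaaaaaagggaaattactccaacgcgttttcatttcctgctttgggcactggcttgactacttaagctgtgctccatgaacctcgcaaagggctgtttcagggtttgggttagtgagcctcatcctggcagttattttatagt
That motif stood in 6.95% of all windows. Among the 8 receptor genes with a window, Clec5a, which did not pass under IL-4/IL-13, held it too, and Mrc1 and Cd209a, which rose under IL-4/IL-13, did not. Whether the motif has a part in any of these changes was not tested.

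Clec9a rose in both groups with LPS. Its log2 signal was 6.58 and 6.56 in IFN-gamma/LPS cells, 4.82 and 4.78 in IL-4/IL-13 cells, 6.52 and 6.91 in LPS/IL-4/IL-13 cells, and 4.99 and 4.78 in untreated cells. The LPS groups overlapped each other and lay above the other arrays, and IL-4/IL-13 cells overlapped untreated cells. The log2 differences of signal were 1.69 ± 0.14 under IFN-gamma/LPS (limma adjusted p = 4.84e-07) and 1.83 ± 0.14 under LPS/IL-4/IL-13 (2.84e-07), while IL-4/IL-13 gave -0.09 with a 95% interval from -0.38 to 0.21. The B cell markers ran from 3.94 to 5.69 in untreated cells, a range that holds the low Clec9a values. Over 8 dendritic cell markers the mean log2 signal was 6.71 and 6.74 in IFN-gamma/LPS arrays, 6.38 and 6.45 in IL-4/IL-13 arrays, 6.60 and 6.70 in LPS/IL-4/IL-13 arrays, and 5.85 and 5.93 in untreated arrays. Of the 8, 5 rose and 1 fell under IFN-gamma/LPS, 2 rose under IL-4/IL-13, where Clec9a did not pass, and 3 rose under LPS/IL-4/IL-13, where 51.9%, 20.2% and 45.6% of all genes passed. The chemokine receptor gene Xcr1, which marks the same dendritic cells as Clec9a, had log2 signals of 7.72 and 8.02 in IFN-gamma/LPS cells, 5.80 and 5.79 in IL-4/IL-13 cells, 5.71 and 6.08 in LPS/IL-4/IL-13 cells, and 5.58 and 5.66 in untreated cells. It rose under IFN-gamma/LPS (2.25 ± 0.14) and stood at 0.28 ± 0.14 under the combination, where it did not pass. The growth factor receptor gene Flt3, which defines dendritic cells and their precursors, passed in no comparison. Batf3 and Kmo were the 2 markers that rose under IL-4/IL-13, and both also rose under the combination. Batf3 had group means of 7.16 under IFN-gamma/LPS, 8.28 under IL-4/IL-13, 8.46 under the combination and 6.45 in untreated cells. Those of Kmo were 6.295, 8.005, 9.22 and 6.92 in the same order, and Kmo was the marker that fell under IFN-gamma/LPS. Ccr7, Dpp4 and Zbtb46 rose under IFN-gamma/LPS, as did Xcr1 and Batf3. In the same order of groups, Ccr7 had means of 9.10, 6.29, 6.86 and 6.165, and Dpp4 of 6.085, 5.345, 5.49 and 5.325. Zbtb46 had 6.025, 5.99, 5.935 and 5.64, and Siglech 5.91, 6.005, 5.965 and 5.825. The part of dendritic cells in the Clec9a change was not tested.

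Clec5a was highest under IFN-gamma/LPS. Array values (log2) were 7.98 on both IFN-gamma/LPS arrays, 7.30 and 7.05 in IL-4/IL-13 cells, 7.54 and 7.14 in LPS/IL-4/IL-13 cells, and 6.89 and 6.79 in untreated cells. IFN-gamma/LPS lay above every other array, and the remaining treated groups overlapped each other above untreated cells. Clec5a rose 2.20-fold under IFN-gamma/LPS (1.14 ± 0.14, limma adjusted p = 1.60e-05) and was 0.64 ± 0.14 lower under LPS/IL-4/IL-13 than under IFN-gamma/LPS (0.00507). Its rise under LPS/IL-4/IL-13 (0.50 ± 0.14, limma adjusted p = 0.00988) fell short without untreated array 2 (0.45, 0.0744) or LPS/IL-4/IL-13 array 1 (0.30, 0.0793). Under IL-4/IL-13 the value was 0.34 ± 0.14 and did not pass (limma adjusted p = 0.109), but it passed on leaving out either LPS/IL-4/IL-13 array (0.038 and 0.0372), which changes only the estimated spread.

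Clec12a encodes MICL, an inhibitory receptor that senses uric acid crystals of dead cells. It varied least of the 10 genes, by 0.54 between its highest and lowest group mean. On the log2 scale the arrays read 12.12 and 12.06 in IFN-gamma/LPS cells, 11.78 and 11.70 in IL-4/IL-13 cells, 12.04 and 12.08 in LPS/IL-4/IL-13 cells, and 12.30 and 12.25 in untreated cells. Untreated cells were highest, IL-4/IL-13 cells were lowest, and the LPS groups overlapped between them. Clec12a fell 1.45-fold under IL-4/IL-13 (-0.54 ± 0.06, limma adjusted p = 3.63e-05), and adding LPS gave 0.32 ± 0.06 over IL-4/IL-13 alone (0.000648). The smaller decreases under IFN-gamma/LPS (-0.18 ± 0.06, limma adjusted p = 0.0177) and LPS/IL-4/IL-13 (-0.21 ± 0.06, 0.00882) both lost the threshold without untreated array 1 (0.131 and 0.0865) and without the mean-variance trend (0.113 and 0.0797). The IFN-gamma/LPS decrease was also lost without IFN-gamma/LPS array 2 (0.101) and after quantile normalization (-0.12, 0.101).

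Mrc1, Clec10a and Cd209a encode receptors that take up glycoproteins. Mrc1 makes the mannose receptor CD206, Clec10a makes MGL1, which binds galactose-type sugars, and Cd209a makes a mouse relative of the human receptor DC-SIGN. All 3 rose under IL-4/IL-13, and their values differed once LPS was added.

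Mrc1 was above untreated cells also when LPS was added to IL-4 and IL-13. Its log2 signal was 10.90 and 11.00 in IFN-gamma/LPS cells, 12.47 and 12.50 in IL-4/IL-13 cells, 12.31 and 12.09 in LPS/IL-4/IL-13 cells, and 11.80 and 11.73 in untreated cells. The 4 groups did not overlap. Mrc1 rose 1.65-fold under IL-4/IL-13 (0.72 ± 0.08, limma adjusted p = 2.85e-05) and 1.35-fold under LPS/IL-4/IL-13 (0.43 ± 0.08, 0.000424), and was 2.38-fold higher under the combination than under IFN-gamma/LPS (1.25 ± 0.08, 2.30e-07). The combination was 0.28 ± 0.08 lower than IL-4/IL-13 alone (limma adjusted p = 0.00912), which was lost without IL-4/IL-13 array 2 (0.0709) or LPS/IL-4/IL-13 array 2 (-0.17, 0.0551), and also after median centring (0.0542) and without the mean-variance trend (0.0595). The Mrc1 window, shown as one of a gene raised by IL-4/IL-13 both with LPS and without it, holds 2 PU.1 matches and 1 NF-kB match (50.8% of windows) in capitals.
Mrc1 chr2:14229164-14229463 (+): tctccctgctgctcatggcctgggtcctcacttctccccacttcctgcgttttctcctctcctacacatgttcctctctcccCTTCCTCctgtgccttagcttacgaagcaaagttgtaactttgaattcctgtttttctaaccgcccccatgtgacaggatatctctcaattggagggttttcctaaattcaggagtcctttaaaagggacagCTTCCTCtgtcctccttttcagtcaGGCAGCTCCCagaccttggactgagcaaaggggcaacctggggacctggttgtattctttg

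Clec10a rose under IL-4/IL-13 and fell in both groups with LPS. Array values (log2) were 5.49 and 5.81 in IFN-gamma/LPS cells, 8.96 and 8.78 in IL-4/IL-13 cells, 5.95 and 5.61 in LPS/IL-4/IL-13 cells, and 7.54 and 7.29 in untreated cells. The LPS groups overlapped each other below untreated cells, and IL-4/IL-13 cells lay above all. Clec10a rose 2.74-fold under IL-4/IL-13 (1.46 ± 0.15, limma adjusted p = 2.56e-05) and its signal fell, to values not shown above background, under IFN-gamma/LPS (-1.76 ± 0.15, 7.27e-07) and LPS/IL-4/IL-13 (-1.64 ± 0.15, 1.82e-06). LPS/IL-4/IL-13 was below IL-4/IL-13 alone (-3.09 ± 0.15, limma adjusted p = 6.67e-09) and differed from IFN-gamma/LPS by 0.13 with a 95% interval from -0.20 to 0.46. Its neighbour Mgl2, the gene of the related lectin MGL2, had 6.25 and 6.12 in IFN-gamma/LPS cells, 8.62 and 8.25 in IL-4/IL-13 cells, 6.03 and 5.83 in LPS/IL-4/IL-13 cells, and 6.45 and 6.24 in untreated cells. The Mgl2 signal rose under IL-4/IL-13 (2.09 ± 0.14) and was lower under the combination than under IL-4/IL-13 alone (-2.51 ± 0.14). Under IFN-gamma/LPS it did not pass (-0.16 ± 0.14, limma adjusted p = 0.352). Outside the IL-4/IL-13 group its means lay near or below those of Cd3e, so no fold is given. Clec10a and Mgl2 are close paralogs, and whether either probe set also picks up the other gene was not tested.

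Cd209a was highest under the combination. On the log2 scale the arrays read 6.14 and 5.91 in IFN-gamma/LPS cells, 6.26 and 6.25 in IL-4/IL-13 cells, 6.78 and 6.79 in LPS/IL-4/IL-13 cells, and 5.72 and 5.67 in untreated cells. No group overlapped another. Cd209a rose under LPS/IL-4/IL-13 (1.09 ± 0.11, limma adjusted p = 4.19e-06), 0.53 ± 0.11 above IL-4/IL-13 alone (0.00184) and 0.76 ± 0.11 above IFN-gamma/LPS (0.000311). The increase under IFN-gamma/LPS (0.33 ± 0.11, limma adjusted p = 0.0246) was lost without untreated array 1 (0.0761), untreated array 2 (0.11) or IFN-gamma/LPS array 1 (0.22, 0.198). After quantile normalization it was 0.27 (0.0585), and adjusted over every probe set its p was 0.0507. Cd209a is also expressed by dendritic cells, whose marker levels are given beside Clec9a. The part of those cells was not tested.

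**Figure D2:**
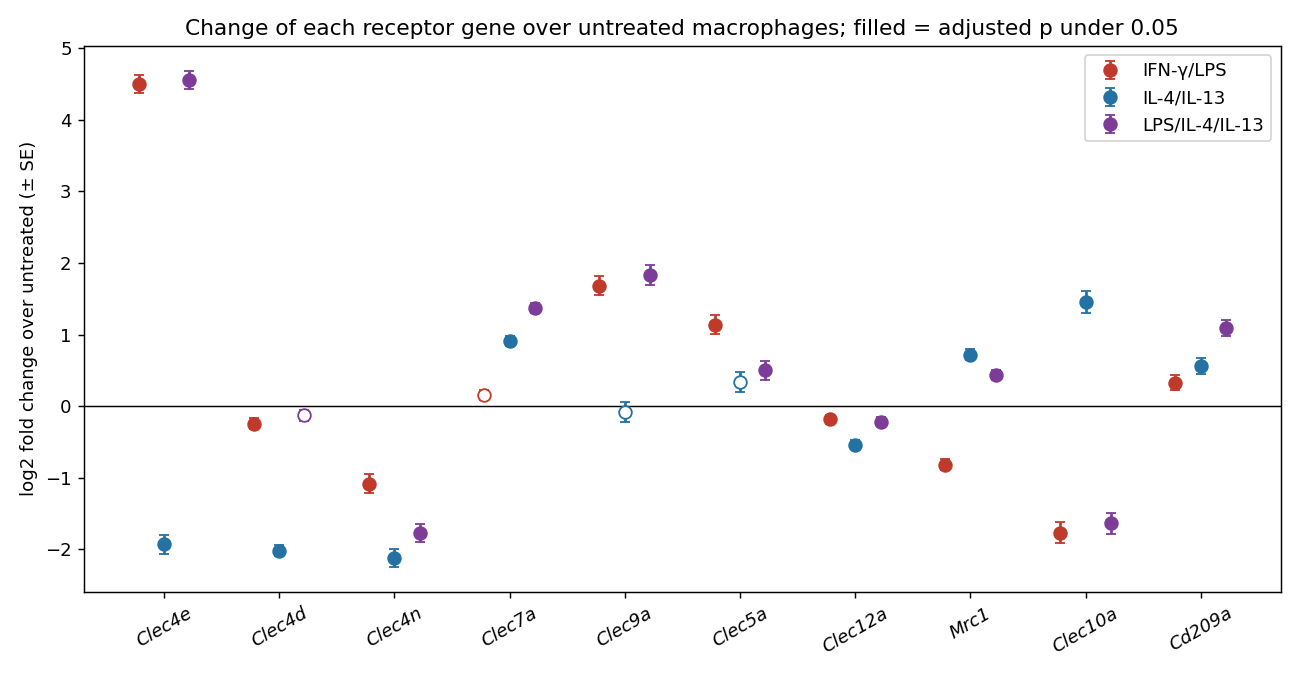
Log2 fold change over untreated cells ± SE (y axis) of the 10 receptor genes (x axis) under each of the 3 treatments, 2 arrays per group, with filled points at a limma adjusted p under 0.05. Clec4e is at 4.50 and 4.55 in the LPS groups and at -1.93 under IL-4/IL-13, whereas Clec10a is at -1.76 and -1.64 in the LPS groups and at 1.46 under IL-4/IL-13.

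Set directly against each other, LPS/IL-4/IL-13 and IFN-gamma/LPS differed in 5 of the 10 receptor genes, where 19.7% of all genes passed, 12.1% higher and 7.62% lower. The arrays of those 5 genes did not overlap (48.9% of all genes). Clec7a, Mrc1 and Cd209a were higher and Clec4n and Clec5a lower under LPS/IL-4/IL-13, and Clec4e, Clec4d, Clec9a, Clec12a and Clec10a did not pass, with differences from -0.03 to 0.14. The combination differed from IL-4/IL-13 alone in 8, where 36.7% of all genes passed, 14.1% higher and 22.6% lower, with 6 higher (Clec4e, Clec9a, Clec4d, Cd209a, Clec7a and Clec12a) and 2 lower (Clec10a and Mrc1). With each array centred on its median the split was 7 higher and 1 lower. The arrays did not overlap for 9 of the 10 (60.2% of all genes). IFN-gamma/LPS and IL-4/IL-13 differed in 9, where 41.6% of all genes passed, 15.5% higher and 26.1% lower, with 6 higher under IFN-gamma/LPS (Clec4e, Clec4d, Clec9a, Clec4n, Clec5a and Clec12a) and 3 lower (Clec10a, Mrc1 and Clec7a). Cd209a, at -0.23 ± 0.11, did not pass there (limma adjusted p = 0.123), though the arrays did not overlap for any of the 10 (65.3% of all genes).

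Likeness of the receptor genes to other genes was measured as the root mean square difference of log2 values relative to untreated cells over the 8 arrays, for members whose group means span at least 1. It is a description, with no test. For Clec4e, Clec4n, Clec9a, Clec5a, Clec10a and Cd209a the measure includes values not shown above background, which may understate their changes. By that measure the chemokine gene Cxcl2 (0.23) and the cytokine gene Il1b (0.24) were nearest to Clec4e, Adgrl2 (0.26) and the chemokine receptor gene Ccr2 (0.36) to Clec4d, and Lpin2 (0.16) and St18 (0.25) to Clec4n. Abhd17b (0.14) and the cytokine receptor gene Il31ra (0.16) were nearest to Clec7a, Bcl3 (0.13) and B4galt5 (0.14) to Clec9a, and Macroh2a1 (0.09) and Spata5 (0.10) to Clec5a. Mapkapk3 (0.11) and Ostc (0.12) were nearest to Mrc1, Ank (0.15) and the transferrin receptor gene Tfrc (0.27) to Clec10a, and Hlx (0.09) and Slc1a2 (0.09) to Cd209a.

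Lectin genes next to the 10 receptor genes did not all move with them. In the run of 9 genes that ends with Clec4n, Clec4d and Clec4e, 7 fell and 1 rose under IFN-gamma/LPS, 5 fell under IL-4/IL-13, and 5 fell and 1 rose under LPS/IL-4/IL-13, and the gene that rose was Clec4e each time. Of all genes, 51.9%, 20.2% and 45.6% passed in these comparisons. Clec4a2, the gene of the inhibitory receptor DCIR, fell under all 3 treatments (-1.02 ± 0.09, -1.30 ± 0.09 and -1.18 ± 0.09), as did Clec4b1 (-1.78 ± 0.15, -1.66 ± 0.15 and -2.21 ± 0.15), whose treated values lay below the highest B cell marker. Clec4a3 had 9.57 and 9.86 in IFN-gamma/LPS cells, 11.83 and 11.75 in IL-4/IL-13 cells, 11.25 and 11.23 in LPS/IL-4/IL-13 cells, and 11.70 and 11.72 in untreated cells, and fell under IFN-gamma/LPS (-2.00 ± 0.09) and LPS/IL-4/IL-13 (-0.47 ± 0.09). The Clec4a genes are paralogs of similar sequence, and signal shared between their probe sets was not tested. Next to Clec7a, Olr1, the gene of the oxidised LDL receptor LOX-1, had 11.30 and 11.26 in IFN-gamma/LPS cells, 7.33 and 7.11 in IL-4/IL-13 cells, 12.05 and 11.96 in LPS/IL-4/IL-13 cells, and 4.87 and 4.78 in untreated cells. Its untreated values lie within the range of the B cell markers, and its signal rose by 6.46 ± 0.10, 2.40 ± 0.10 and 7.18 ± 0.10 on the log2 scale in the 3 treated groups, whereas Clec1a, between Clec7a and Clec9a, passed in none (-0.22, -0.08 and -0.20). Of the 9 genes in the row that holds Cd209a, 3 rose under IFN-gamma/LPS, Cd209a among them, where 51.9% of all genes passed. Under IL-4/IL-13 1 rose, which was Cd209a, where 20.2% of all genes passed. Under LPS/IL-4/IL-13 2 rose, Cd209a and Cd209e (0.49 ± 0.16), where 45.6% of all genes passed.

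Over a list of 59 other genes with a C-type lectin or lectin-like domain, 56 were measured. Under IFN-gamma/LPS 20 rose and 12 fell, under IL-4/IL-13 6 rose and 7 fell (3 and 7 with median centring), and under LPS/IL-4/IL-13 16 rose and 10 fell, with median changes of 0.22, 0.07 and 0.18 against 0.105, 0.07 and 0.09 for all genes, of which 51.9%, 20.2% and 45.6% passed. Without IL-4/IL-13 array 2, 8 were called under IL-4/IL-13 in place of 13, and without untreated array 1, 17 under LPS/IL-4/IL-13 in place of 26. Besides Olr1, the log2 signal of Cd69, an early activation antigen, rose by 7.05 ± 0.10 under IFN-gamma/LPS and 6.38 ± 0.10 under LPS/IL-4/IL-13. Klrk1, the gene of NKG2D, rose by 3.92 ± 0.15 and 1.70 ± 0.15, and Sele, the gene of E-selectin, by 3.68 ± 0.13 under IFN-gamma/LPS. Untreated means were 5.605 for Cd69, 4.825 for Olr1, 4.36 for Klrk1 and 5.895 for Sele, all below that of Cd3e. Klrk1 under LPS/IL-4/IL-13, at 6.055, also lay below Cd3e. None of these means is shown to lie above background. Cd302 was among the genes lowered most by IL-4/IL-13 (-1.70 ± 0.14).

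Genes of the signalling route of these receptors were described as a further list. Of 54 listed genes 49 were measured, and 15 rose and 22 fell under IFN-gamma/LPS, 8 rose and 15 fell under IL-4/IL-13 (9 and 11 after quantile normalization), and 18 rose and 19 fell under LPS/IL-4/IL-13, with medians of -0.07, -0.14 and 0.05, to be read against the same shares and medians of all genes. Fcer1g, the adaptor chain of Mincle, MCL and Dectin-2, passed against untreated cells under no treatment (0.03, -0.14 and -0.10, each ± 0.05). Tyrobp, the adaptor gene of MDL-1, fell under all 3 (-0.84 ± 0.06, -0.27 ± 0.06 and -0.83 ± 0.06). Syk had 10.57 and 10.55 in IFN-gamma/LPS cells, 9.25 and 9.31 in IL-4/IL-13 cells, 10.55 and 10.36 in LPS/IL-4/IL-13 cells, and 10.57 and 10.39 in untreated cells. It fell 2.30-fold under IL-4/IL-13 (-1.20 ± 0.09, limma adjusted p = 1.73e-06) and was 2.26-fold higher with LPS added (1.18 ± 0.09). Card9 fell under all 3 treatments (-1.10 ± 0.11, -0.38 ± 0.11 and -0.76 ± 0.11).

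Further down the route, Malt1, the protease gene that acts with Card9 and Bcl10, rose under IFN-gamma/LPS (3.48 ± 0.09) and LPS/IL-4/IL-13 (3.18 ± 0.09) and stood at -0.25 under IL-4/IL-13, where it did not pass. The kinase gene Src rose with it (3.09 ± 0.10 and 3.20 ± 0.10), and so did Nfkb2, an NF-kB subunit gene (2.44 ± 0.08 under IFN-gamma/LPS). Inpp5d, the gene of the inositol phosphatase SHIP-1, a brake on these receptors, fell in both LPS groups (-3.04 ± 0.09 and -2.48 ± 0.09). Under IL-4/IL-13 the largest changes were in the transcription factor gene Egr2 (2.74 ± 0.09), the kinase gene Fyn (1.88 ± 0.07), the ubiquitin ligase gene Cblb (1.37 ± 0.06) and the transcription factor gene Nfatc2 (-1.27 ± 0.09). Nfatc2 fell further under LPS/IL-4/IL-13 (-2.60 ± 0.09).

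**Figure D3:**
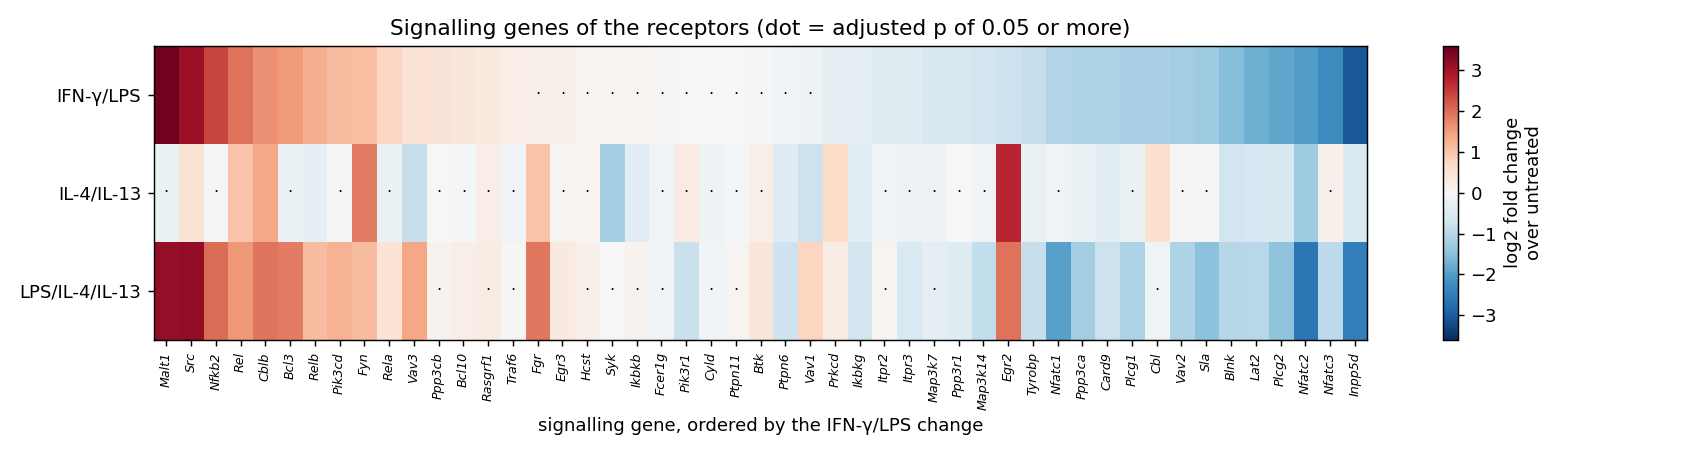
Log2 fold change over untreated cells (colour) of the 49 measured signalling genes (columns, ordered by the IFN-gamma/LPS change) under each of the 3 treatments (rows), with dots where the limma adjusted p was 0.05 or more. Malt1 and Src are highest in both rows with LPS, Egr2 is highest under IL-4/IL-13 at 2.74, and Inpp5d is lowest under IFN-gamma/LPS at -3.04.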

How the data were processed

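Total RNA with a RIN above 9 was hybridised to Affymetrix MoGene-1_0-st-v1 arrays, 1 sample per array, per the labels. The authors made 1 log2 signal per probe set and array, which the deposited labels name a MAS5 signal, and the log2 scale was read from its range of 1.46 to 13.71. How they corrected background and normalized was not given in the sources used here. Of 35556 probe sets, 21789 carried 1 symbol in the platform annotation. Each of the 10 receptor genes had 1 probe set. For the 999 named genes with several, the probe set of highest mean stood for the gene. limma 3.58.1 in R 4.3.3 was fitted to all 8 arrays with a mean per group and a variance trend (4 residual and 7.55 prior degrees of freedom), adjusted by Benjamini-Hochberg over 19938 genes, and tested on simulated data. The number of arrays limits the precision.

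The members and lists were chosen with earlier results of these data known. Besides the 10 receptor genes, the text names the 4 largest called changes per list and treatment, Syk, Card9, Fcer1g, Tyrobp, neighbouring lectin genes, and the 2 genes nearest to each member. Xcr1, Flt3, Batf3, Kmo and Ccr7 were picked from the marker list after their values were seen. Dpp4, Zbtb46 and Siglech are named to complete the dendritic cell markers. Gene order and promoters came from RefSeq GRCm38.p6, which held windows for 8 of the 10 receptor genes. The alternatives are given in the closing section.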

Additional observations from a re-analysis of the deposited data

How the results depend on the processing

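Across 18 other settings, 1033 of 1074 values of single receptor genes kept their direction and side of the threshold. Another 21 no longer passed, 14 came to pass, and 6 changed sign, none of which passed in either fit. Those 6 arose on leaving out 1 array in turn, where Clec9a under IL-4/IL-13 ran from -0.19 to 0.02 (0.02 without untreated array 1). Between the combined treatment and IFN-gamma/LPS, Clec4e ran from -0.02 to 0.14, Clec9a from -0.05 to 0.34 and Clec10a from -0.04 to 0.30, and Clec10a was at -0.03 without IFN-gamma/LPS array 1. Between the combined treatment and IL-4/IL-13, Clec5a ran from -0.035 to 0.365. A group left with 1 array was taken to vary like the others. Counts of called receptor genes stayed within 1.5 times in all settings. Restriction to genes above the 40th percentile of signal left 11965 genes to test and dropped Clec9a. Of those genes, 8792 were called under IFN-gamma/LPS and 8014 under the combined treatment. Of the other lectin genes, 18 of 23 were called under IFN-gamma/LPS in place of 32 of 56. Under the combined treatment 15 of 23 other lectin genes were called in place of 26 of 56. Leaving out 1 array gave 8 to 13 such genes under IL-4/IL-13, 17 to 26 of them under the combined treatment (17 without untreated array 1), and 2063 to 4876 of all genes under IL-4/IL-13. The lowest, 2063, was without untreated array 1. Adjusting over every probe set gave 2641 genes under IL-4/IL-13 in place of 4020. Fitting only the 4 arrays compared gave 2603 genes in place of 3926 for the combined treatment against IFN-gamma/LPS. The cause was not tested. With the replicate block, the combined treatment set against IL-4/IL-13 had 9 called receptor genes in place of 8, with Clec4n added (adjusted p = 0.0215). The block changed no other receptor call. Same-numbered arrays deviated together at r = -0.36 to 0.22 over the 6 pairs of groups, so the numbers were not taken as pairs. With the 2 IFN-gamma/LPS numbers crossed, chosen after seeing the data, 9 receptor genes in place of 8 were called under IL-4/IL-13 and between the combined treatment and IL-4/IL-13, with no other receptor count changed.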
